A study of Mus musculus with 6 samples.

Results

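Vimentin, fibronectin, 5 transcription factors of the Snail, Zeb and Twist families and cadherin-11 were followed in mouse embryonic stem cells that had received small interfering RNAs against nucleolin. The members were the Affymetrix probe sets annotated to exactly 1 of the symbols Vim, Fn1, Snai1, Snai2, Zeb1, Zeb2, Twist1 and Cdh11. All 8 genes were found, with 20 probe sets out of 45037 tested, and no probe set that named several genes named a member. Zeb2 had 5 probe sets, Zeb1 had 4, Vim had 3, Fn1, Snai2 and Cdh11 had 2 each, and Snai1 and Twist1 had 1 each.

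The cells were E14Tg2a, a mouse embryonic stem cell line, and RNA was taken at 96 h. The groups were Ncl siRNA #1, Ncl siRNA #2 and a control siRNA that targets firefly luciferase, with 2 arrays each, and all groups thus had been given an siRNA. The labels do not say whether the 2 arrays of a group came from different cultures, and the spread behind each p-value is the spread between arrays, which may be technical. Values are log2 probe set signals as deposited. Differences are on the log2 scale with standard errors (SE) and adjusted p-values from limma over all 45037 probe sets, and a difference passed at an adjusted p under 0.05. The number of arrays limits the precision. Levels of different probe sets cannot be set against each other, since each has its own probes.

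Epithelial cells hold together through cadherin junctions, and in the epithelial to mesenchymal transition they loosen these junctions and take on a motile form. The transcription factors Snai1, Snai2, Zeb1, Zeb2 and Twist1 drive that change in embryos and tumours, the Snail and Zeb factors by binding E-box sequences and repressing epithelial genes such as Cdh1 (E-cadherin). Vimentin, the intermediate filament protein of mesenchymal cells, fibronectin, a matrix glycoprotein bound by integrins, and cadherin-11, a cadherin of mesenchyme, are used as readouts of the mesenchymal state. Mouse embryonic stem cells grow as compact colonies held together by E-cadherin, and fibroblasts, endothelium and leukocytes of adult tissue are known to make much vimentin.

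The arrays were first checked against their labels. Ncl, the targeted gene, was lower with both siRNAs on all 5 of its probe sets, at 37.2% to 72.9% of control with siRNA #1 and at 33.6% to 72.5% with siRNA #2. The stem cell markers Pou5f1 and Nanog stayed bright, with group means of 13.24 and 11.76 with siRNA #1, 13.01 and 11.49 with siRNA #2, and 13.59 and 12.21 with the control siRNA, and both were lower by test with each Ncl siRNA. The 2 control arrays stood apart from the 4 Ncl siRNA arrays in transcripts that stem cells are not known for. Of 9 measured markers of airway and alveolar epithelium 8 were lower with each Ncl siRNA, and their summed linear signal was 260 and 335 with siRNA #1, 337 and 343 with siRNA #2, and 11311 and 11928 in the control arrays. Of 12 markers of lung stroma and fibroblasts 7 were lower with each Ncl siRNA, with sums of 445 and 496 with siRNA #1, 496 and 470 with siRNA #2, and 918 and 1103 in the control arrays. In the comparison of siRNA #2 with siRNA #1, which uses no control array, none of these 9 and 12 markers passed. The spiked poly-A controls also differed by group, with a mean of 8.86 and 8.57 with siRNA #1, 8.46 and 8.39 with siRNA #2, and 7.74 and 7.58 in the control arrays. The hybridisation controls ran the other way, at 11.15 to 11.25 in the Ncl siRNA arrays against 11.98 and 12.07 in the control arrays, and the probe sets for 18S rRNA read 12.96 to 13.20 against 12.19 and 12.02. The part of these differences in the results was not tested. For genes, by the brightest probe set of each of 18193, 34.3% passed with siRNA #1 (18.9% higher, 15.4% lower), 36.7% with siRNA #2 (16.7% higher, 20.0% lower) and 4.56% in siRNA #2 minus siRNA #1 (1.45% higher, 3.11% lower).

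Of the 20 member probe sets, 8 passed with siRNA #1 (5 higher and 3 lower) and 6 passed with siRNA #2 (3 higher and 3 lower). The share of all probe sets that passed was 27.1% with siRNA #1 (14.6% higher, 12.5% lower) and 28.5% with siRNA #2 (13.0% higher, 15.5% lower), and nothing particular to the members is read from their counts. In the mean of both siRNAs 8 passed (5 higher and 3 lower), where 31.5% of all probe sets did (15.2% higher, 16.2% lower). Readings did not overlap with those of the control arrays for 13 of the 20 with siRNA #1 (58.6% of all probe sets), for 16 with siRNA #2 (63.8%) and for 11 with both together (44.1%). The 6 that passed with siRNA #2 also passed with siRNA #1 in the same direction, namely all 3 of Vim (higher), both of Fn1 and 1 of Zeb1 (lower). Vim was the member with the largest differences, up to 4.14-fold, and the other members moved by less than 2-fold. The median difference of the 20 probe sets was 0.08 with siRNA #1 and 0.11 with siRNA #2, against -0.05 and -0.03 over all probe sets. The 2 comparisons share their control arrays.

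**Figure D1:**
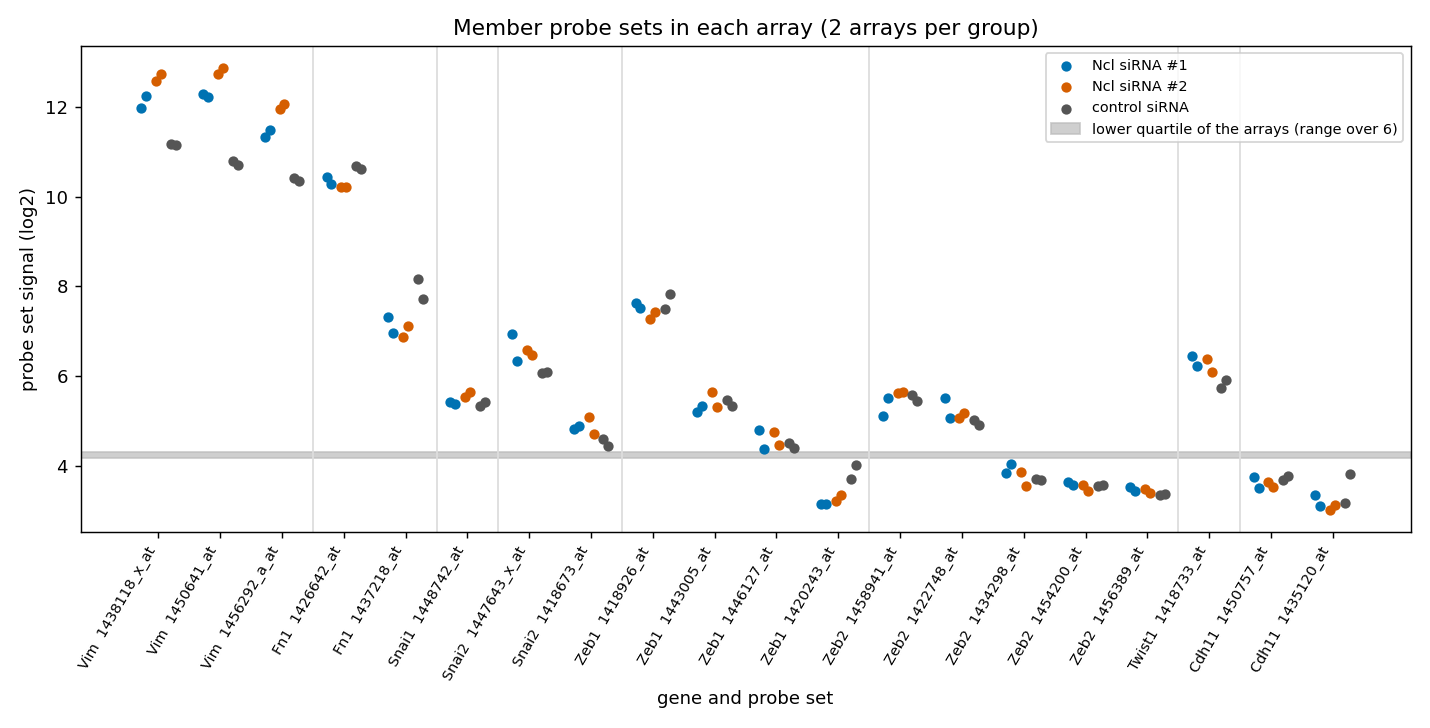
The log2 signal of each member probe set (x axis, grouped by gene) is plotted in each of the 6 arrays, with Ncl siRNA #1, Ncl siRNA #2 and control siRNA from left to right and the grey band at the lower quartile of the arrays. The Vim points of both Ncl siRNAs lie above the control points on all 3 probe sets, and 6 probe sets of Zeb1, Zeb2 and Cdh11 lie below the band in all arrays.

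**Figure D2:**
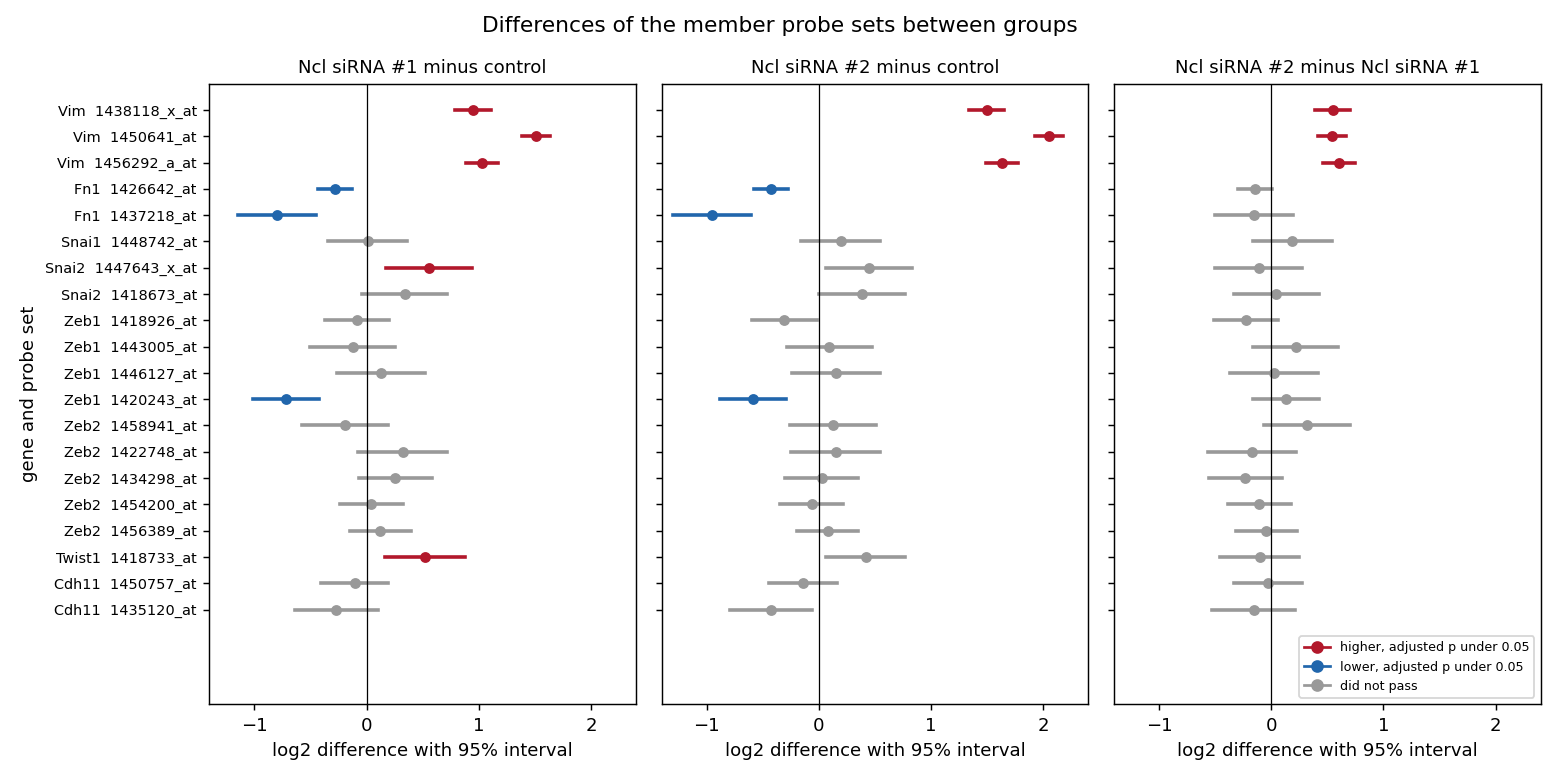
Each point is the log2 difference of a member probe set with its 95% confidence interval from limma, in 3 comparisons from left to right, in red where higher and blue where lower at an adjusted p under 0.05, and in grey where it did not pass. Vim stands to the right of 0 in all 3 panels, and Fn1 to the left of 0 in both comparisons with control.

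Vim rose with both Ncl siRNAs, and more with siRNA #2. Its probe set 1450641_at read 12.29 and 12.22 with siRNA #1, 12.73 and 12.87 with siRNA #2, and 10.80 and 10.70 with the control siRNA. The groups did not overlap, and every siRNA #2 array lay above every siRNA #1 array. On this probe set Vim was 2.84-fold higher with siRNA #1 (log2 1.51, SE 0.06, limma adjusted p = 8.41e-12) and 4.14-fold higher with siRNA #2 (log2 2.05, SE 0.06, limma adjusted p = 1.19e-13). Probe set 1438118_x_at, the brightest for Vim, read 11.98 and 12.24 with siRNA #1, 12.57 and 12.73 with siRNA #2, and 11.17 and 11.15 in the control arrays. Probe set 1456292_a_at read 11.32 and 11.49, 11.95 and 12.06, and 10.41 and 10.34 in the same order of groups. These last 2 probe sets are annotated to the same sequence record, so they do not count as separate evidence, and their differences were smaller than that of 1450641_at. They gave 0.95 (SE 0.07) and 1.03 (SE 0.07) with siRNA #1 and 1.50 (SE 0.07) and 1.63 (SE 0.07) with siRNA #2.

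The test of siRNA #2 minus siRNA #1 passed for all 3 Vim probe sets and for no other member, while 2.91% of all probe sets passed, 0.959% higher and 1.95% lower. Readings of the siRNAs did not overlap for 9 of the 20, against 48.2% of all probe sets. The difference was 0.54 for 1450641_at (SE 0.06, 95% confidence interval 0.42 to 0.67, limma adjusted p = 4.92e-05), 0.55 for 1438118_x_at (SE 0.07, limma adjusted p = 4.02e-04) and 0.60 for 1456292_a_at (SE 0.07, limma adjusted p = 7.06e-05). Vim was thus 1.46-fold to 1.52-fold higher with siRNA #2 than with siRNA #1. All 3 calls were lost when the variances did not follow mean expression (adjusted p from 0.110 to 0.182). Vim was lowest in the control arrays, in which the summed lung stroma signal was highest (918 and 1103). Endothelial markers, another vimentin-rich class, summed to 1055 and 938 with siRNA #1, 892 and 928 with siRNA #2, and 857 and 910 with the control siRNA, but 5 of the 10 were lower and 3 higher in the mean of both siRNAs (median -0.21). Their mean log2 signal was 5.93 to 5.98 in the Ncl siRNA arrays against 6.13 and 6.20 in the control arrays, with Vwf at -1.64 and -1.96 and Pecam1 at 1.72 and 1.27. The part of lung stroma and endothelial transcripts in the Vim difference was not tested.

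The 250 bases before the annotated start of Vim are shown because Vim carried the largest change. Such windows, from RefSeq (GRCm38.p6), were used for 4 of the 8 genes, Vim, Snai1, Twist1 and Zeb2 (4 windows). The other genes had no window in the set used here, which does not mean that RefSeq lacks them. The search was for CACCTG, the E-box letters of the Snail and Zeb factors, for any CANNTG, which includes CACCTG, and for TATAAA. Each was sought on both strands. The Vim window lies at chr2:13574061-13574310 on the plus strand, and capitals mark TATAAA, which starts 32 bases before the start.
Vim: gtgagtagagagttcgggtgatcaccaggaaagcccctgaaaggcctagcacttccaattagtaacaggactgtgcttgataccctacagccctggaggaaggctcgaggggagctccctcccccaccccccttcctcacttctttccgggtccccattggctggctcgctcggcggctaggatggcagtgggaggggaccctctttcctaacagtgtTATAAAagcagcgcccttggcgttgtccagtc
It holds no CACCTG and no CANNTG in these letters. Of 32841 mouse windows of this length, 12.4% held TATAAA, 17.2% held CACCTG and 66.2% held CANNTG.

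Over the 6 arrays, the genes whose centred values lay nearest to those of the brightest Vim probe set, among 16434 other genes, were Tfpi, an inhibitor of the tissue factor pathway of coagulation, Marveld1 and Noct, nocturnin, which is linked to the circadian clock. Their root mean square distances from Vim were 0.07, 0.08 and 0.09 on the log2 scale. Tfpi, for example, read 11.25 and 11.37 with siRNA #1, 11.85 and 11.84 with siRNA #2, and 10.40 and 10.33 with the control siRNA. With 6 arrays in 3 groups, such nearness describes these arrays only.

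**Figure D3:**
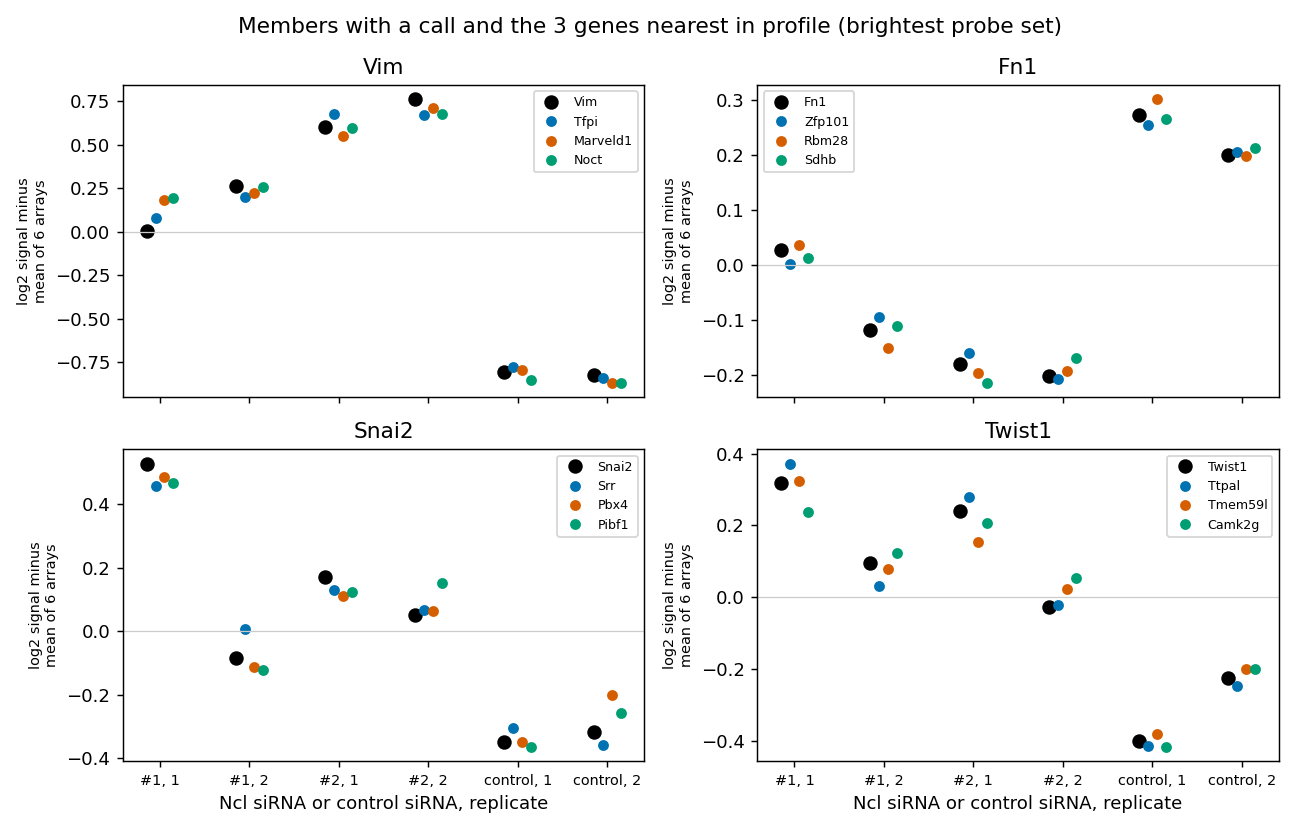
For each member gene with a call on its brightest probe set, the log2 signal minus the mean of the 6 arrays (y axis) is plotted by array, in black, with the 3 genes nearest in profile in colour. The Vim points run from siRNA #2 at the top to the control arrays at the bottom, and the Fn1 points have the control arrays on top.

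Fn1 fell with both Ncl siRNAs. Its brighter probe set, 1426642_at, read 10.43 and 10.29 with siRNA #1, 10.23 and 10.20 with siRNA #2, and 10.68 and 10.61 with the control siRNA. All 4 Ncl siRNA arrays lay below both control arrays, and Fn1 stood at 82.2% of control with siRNA #1 (log2 -0.28, SE 0.07, limma adjusted p = 0.00720) and at 74.3% with siRNA #2 (log2 -0.43, SE 0.07, limma adjusted p = 1.89e-04). The second probe set, 1437218_at, read 7.32 and 6.96, 6.86 and 7.11, and 8.17 and 7.71 in the same order of groups. There Fn1 stood at 57.4% (log2 -0.80, SE 0.16, limma adjusted p = 0.00127) and 51.7% of control (log2 -0.95, SE 0.16, limma adjusted p = 2.19e-04). The call of 1426642_at with siRNA #1 was lost without control replicate 1 (log2 -0.25). It was also lost when the variances did not follow mean expression (limma adjusted p = 0.0967). The siRNA #2 minus siRNA #1 difference of 1426642_at was -0.15 (95% confidence interval -0.30 to 0.01) and that of 1437218_at was -0.15 (-0.50 to 0.19), and neither passed. The control arrays in which Fn1 was highest were also those with the lung stroma transcripts, where Mgp, a matrix protein, read 7.79 against 4.85 with siRNA #1 and 4.88 with siRNA #2 as group means, and Col3a1 read 5.87 against 3.13 and 3.53. The part of those transcripts in the Fn1 difference was not tested, and fewer cells with fibronectin RNA cannot be told apart from less of it per cell in such bulk RNA.

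Around the Fn1 brightest probe set the nearest profiles were those of Zfp101, a zinc finger gene, Rbm28, an RNA-binding protein of the nucleolus, and Sdhb, a subunit of succinate dehydrogenase, all at a distance of 0.02. Their differences ranged from -0.31 to -0.28 with siRNA #1 and from -0.44 to -0.41 with siRNA #2.

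Snai1, the zinc finger repressor of E-cadherin, read 5.42 and 5.38 with siRNA #1, 5.53 and 5.64 with siRNA #2, and 5.34 and 5.43 with the control siRNA, all below the array medians of 5.73 to 5.79. Its difference was 0.01 with siRNA #1 (95% confidence interval -0.34 to 0.36, limma adjusted p = 0.977) and 0.20 with siRNA #2 (-0.16 to 0.55, limma adjusted p = 0.452). Neither passed, and the intervals hold both lower and higher values. The 250 bases before the Snai1 start, at chr2:167537945-167538194 on the plus strand, are shown because Snai1 is itself among the factors that read CACCTG, which is marked in capitals and starts 126 bases before the start.
Snai1: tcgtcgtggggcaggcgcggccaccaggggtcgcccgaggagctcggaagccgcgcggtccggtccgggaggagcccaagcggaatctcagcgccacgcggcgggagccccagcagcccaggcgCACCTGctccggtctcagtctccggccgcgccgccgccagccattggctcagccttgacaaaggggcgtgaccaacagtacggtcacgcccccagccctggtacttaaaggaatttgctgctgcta
Among the 7 member windows this was the only one with CACCTG, a description of letters and not of binding.

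Snai2, the close relative of Snai1 that acts in neural crest and mesenchyme, rose with siRNA #1 on 1 of its 2 probe sets. Probe set 1447643_x_at read 6.94 and 6.33 with siRNA #1, 6.58 and 6.47 with siRNA #2, and 6.06 and 6.10 with the control siRNA. All Ncl siRNA arrays lay above both control arrays, but the siRNA #1 replicates lay further apart than the difference from control. The difference was 0.56 with siRNA #1 (SE 0.18, limma adjusted p = 0.0310) and 0.45 with siRNA #2 (SE 0.18, limma adjusted p = 0.0823). The siRNA #1 call was lost without any 1 of the other arrays except siRNA #1 replicate 2, and without siRNA #1 replicate 1 the difference was 0.25 (adjusted p = 0.307). With only the groups compared in the fit, the siRNA #2 difference passed (adjusted p = 0.0162) and the siRNA #1 difference did not (adjusted p = 0.0572). Probe set 1418673_at read 4.83 and 4.89, 5.10 and 4.72, and 4.59 and 4.45 in the same order of groups and did not pass, with 0.34 (SE 0.18, limma adjusted p = 0.189) and 0.38 (SE 0.18, limma adjusted p = 0.133). Probe sets with the suffix _x_at can read related transcripts.

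Twist1, the basic helix-loop-helix factor of mesoderm and cranial mesenchyme, rose with siRNA #1. It read 6.45 and 6.23 with siRNA #1, 6.37 and 6.10 with siRNA #2, and 5.73 and 5.91 with the control siRNA, without overlap between Ncl siRNA and control arrays. The difference was 1.43-fold with siRNA #1 (log2 0.52, SE 0.17, limma adjusted p = 0.0281) and 1.34-fold with siRNA #2 (log2 0.42, SE 0.17, limma adjusted p = 0.0746). The siRNA #2 minus siRNA #1 difference was -0.10 (95% confidence interval -0.46 to 0.25), so the siRNAs were not shown to differ. The siRNA #1 call was lost without siRNA #1 replicate 1 (0.41, adjusted p = 0.135), without control replicate 1 (0.43, adjusted p = 0.154) and without either siRNA #2 array (adjusted p = 0.0569 and 0.0549). The siRNA #2 difference passed without either siRNA #1 array (adjusted p = 0.0452 and 0.0442). With only the groups compared in the fit it passed (adjusted p = 0.0463) where siRNA #1 did not (0.0570), and likewise with array weights (0.0326, against 0.0544 for siRNA #1). In RefSeq the Twist1 window lies at chr12:33957421-33957670 on the plus strand and is shown because Twist1 rose with siRNA #1 and, like Vim, has TATAAA there. Capitals mark TATAAA, which starts 126 bases before the start.
Twist1: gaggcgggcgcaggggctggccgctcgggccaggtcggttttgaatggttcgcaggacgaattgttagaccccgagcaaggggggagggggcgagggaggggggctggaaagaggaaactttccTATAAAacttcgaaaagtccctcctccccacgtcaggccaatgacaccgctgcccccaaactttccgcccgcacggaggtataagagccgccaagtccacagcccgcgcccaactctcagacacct
Like the Vim window it holds no CANNTG in these letters.

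The nearest profiles to Snai2 were those of Srr, the serine racemase, Pbx4, a homeodomain factor, and Pibf1, each at a distance of 0.06. Those nearest to Twist1 were Ttpal, Tmem59l and Camk2g, a calcium and calmodulin dependent kinase, at 0.04 to 0.05. All of them had their lowest readings in a control array.

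Of the Zeb factors, large repressors with zinc fingers at both ends, only a Zeb1 probe set at the bottom of the scale passed. The brightest Zeb1 probe set, 1418926_at, read 7.63 and 7.53 with siRNA #1, 7.28 and 7.43 with siRNA #2, and 7.49 and 7.83 with the control siRNA. It did not pass with siRNA #1 (log2 -0.08, 95% confidence interval -0.37 to 0.20, limma adjusted p = 0.706) or with siRNA #2 (-0.31, -0.59 to -0.02, limma adjusted p = 0.108). Without control replicate 1 it passed with siRNA #2, at -0.48 (adjusted p = 0.0324). Probe set 1420243_at read 3.15 and 3.14, 3.22 and 3.35, and 3.72 and 4.02 in the same order of groups. It was lower by test with siRNA #1 (-0.72, SE 0.14, limma adjusted p = 7.37e-04) and siRNA #2 (-0.58, SE 0.14, limma adjusted p = 0.00367), but each of the 6 readings was under its array's lower quartile (4.17 to 4.32). The siRNA #2 call of this probe set was lost without siRNA #2 replicate 1 (adjusted p = 0.0599). The other Zeb1 probe sets, 1443005_at and 1446127_at, read between 4.38 and 5.65 over all arrays, and their groups overlapped.

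Zeb2, the Zeb factor of neural crest and of leukocytes, did not pass on any of its 5 probe sets. The brightest, 1458941_at, read 5.11 and 5.52 with siRNA #1, 5.63 and 5.64 with siRNA #2, and 5.58 and 5.44 with the control siRNA. Probe set 1422748_at read 5.52 and 5.07, 5.06 and 5.18, and 5.03 and 4.91 in the same order of groups. Without siRNA #1 replicate 2, probe set 1422748_at passed with siRNA #1, at 0.55 (adjusted p = 0.0411) against 0.32 with all arrays. The other 3 lay below the lower quartile in all 6 arrays. Over the 5 probe sets the difference ranged from -0.20 to 0.32 with siRNA #1 and from -0.06 to 0.15 with siRNA #2. Of 10 leukocyte markers 2 were higher and 2 lower with siRNA #1, and 1 was higher and 2 lower with siRNA #2, the largest difference being that of Lyz2, lysozyme, at -3.57 and -3.47. Their summed signal was 2772 to 2949 in the Ncl siRNA arrays against 2837 and 3041 in the control arrays. Most of each sum came from Laptm5, which was higher with each siRNA on its brightest probe set (0.26 and 0.25). The mean log2 signal of the 10 was 6.07 to 6.17 in the Ncl siRNA arrays against 6.51 and 6.47 in the control arrays. The part of leukocyte transcripts in the member differences was not tested.

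Cdh11, the cadherin of mesenchyme and bone, had no signal above the lower quartile in any array. Probe set 1450757_at read 3.74 and 3.50 with siRNA #1, 3.65 and 3.53 with siRNA #2, and 3.70 and 3.77 with the control siRNA. Probe set 1435120_at read 3.36 and 3.10, 3.03 and 3.13, and 3.18 and 3.83 in the same order, and neither passed. The control replicates of 1435120_at lay further apart than its difference of -0.43 with siRNA #2 (SE 0.17, limma adjusted p = 0.0819). Without control replicate 1, which read 3.18, the probe set passed at -0.75 (adjusted p = 0.00166).

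Among other transcription factors of the transition, 5 of 13 measured genes were higher and 2 lower in the mean of both Ncl siRNAs, with a median of 0.16 against -0.05 over 18193 genes. Over all genes, by the brightest probe set of each, 39.3% passed in this comparison, 19.3% higher and 19.9% lower. Hmga2, a chromatin protein of embryonic cells that can induce Snail factors, rose by 1.46 with siRNA #1 (SE 0.08) and 2.16 with siRNA #2 (SE 0.08), and was higher with siRNA #2 than with siRNA #1 by 0.70 (SE 0.08, limma adjusted p = 1.39e-04). Snai3, the third Snail gene, rose by 1.04 (SE 0.13) and 0.63 (SE 0.13), and Sox4 by 1.05 (SE 0.07) and 1.18 (SE 0.07). Tcf4 and Tcf12, E proteins that pair with Twist1, went opposite ways, Tcf4 at -0.76 and -0.99 and Tcf12 at 0.67 and 0.57. With the mean of all its probe sets, the difference of Tcf12 in the mean of both siRNAs was 0.39, against 0.62 on the brightest. Of 12 corepressors and regulators of Snail protein stability 4 were higher and 5 lower (median 0.06). Ajuba, a LIM protein that binds Snail factors, rose by 0.89 and 0.86, and the corepressor Sin3a fell by 0.49 and fell by 0.67.

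Epithelial genes were higher more often than lower, with 16 of 25 higher and 5 lower in the mean of both siRNAs and a median of 0.46. Cdh1 read 12.76 and 13.00 with siRNA #1, 13.03 and 12.93 with siRNA #2, and 12.77 and 12.68 with the control siRNA. It did not pass with siRNA #1 (0.15, SE 0.07, limma adjusted p = 0.0934) and rose with siRNA #2 (0.25, SE 0.07, limma adjusted p = 0.00673). Dsp, the desmosomal plaque protein desmoplakin, rose by 2.83 (SE 0.09) and 3.76 (SE 0.09), and the tight junction genes Cldn4 and Cldn6 by 1.50 and 1.53 with siRNA #1 and by 2.02 and 2.04 with siRNA #2. Rab25, a small GTPase of epithelia, fell by 1.21 and fell by 1.36. Vim, Dsp, Cldn4 and Cldn6 were all higher in the same 4 arrays, but Dsp, Cldn4 and Cldn6 were named for the size of their change. Their rise beside that of Vim is thus not a separate result.

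Among 17 other mesenchymal genes measured, 8 were higher and 3 lower (median 0.33). Cdh2, N-cadherin, rose by 1.61 (SE 0.10) and 1.96 (SE 0.10), Col5a2, a fibrillar collagen, by 2.14 (SE 0.17) and 2.19 (SE 0.17), and Mmp2, a matrix protease, by 1.21 and 1.22. The 3 lower genes were Col3a1, Col1a2 and Postn, and all 3 also stand in the list of lung stroma markers. The part of the lung transcripts in these differences was not tested. With the mean of all probe sets, Col3a1 gave -1.51 against -2.54 in the mean of both siRNAs, and Col1a2 gave -0.45 against -0.88. Of 18 genes in the TGF-beta pathway, the signal best known for inducing the transition, 10 were higher and 1 lower (median 0.46). The receptors Tgfbr3 and Tgfbr2 rose by 1.84 and 1.15 with siRNA #1 and by 2.01 and 1.46 with siRNA #2, and the ligand Tgfb2 by 1.02 and 1.19. The ligands Tgfb1 and Tgfb3 did not pass, at 0.06 and 0.07 in the mean of both siRNAs. Smurf1, which restrains the pathway, rose by 0.60 and 0.74, so the count gives no direction of signalling. With the mean of all probe sets, Tgfbr3 gave 1.08 against 1.93 in the mean of both siRNAs, and Tgfbr2 gave 0.46 against 1.30.

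Of 16 measured receptors and adhesion partners of fibronectin, 10 were higher and 1 lower (median 0.69). Itga8 and Itgav, integrin chains that bind fibronectin, rose by 2.64 and 1.50 with siRNA #1 and by 2.95 and 1.77 with siRNA #2, and Sdc4, a heparan sulphate proteoglycan that binds it too, by 2.71 with each siRNA (SE 0.06). With the mean of all probe sets, Itgav gave 0.70 against 1.63 in the mean of both siRNAs. Itga5, the alpha chain of the classical fibronectin receptor, read 6.37 with each siRNA and 6.29 with control as group means and did not pass.

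Of 15 intermediate filament genes and partners, 11 were higher and 1 lower (median 0.85), a class to which Vim itself belongs. The keratins Krt8 and Krt18 rose by 3.07 and 3.17 with siRNA #1 and by 3.99 and 4.25 with siRNA #2, and for both, as for Vim, the siRNA #2 minus siRNA #1 difference passed (limma adjusted p = 4.21e-07 and 1.73e-07). Lmna, the A-type lamin of the nuclear envelope, rose by 0.72 (SE 0.10) and 1.57 (SE 0.10) and also differed between the siRNAs (0.84, limma adjusted p = 1.04e-04). Of the 15 genes, these 3 were higher in siRNA #2 minus siRNA #1, against 1.45% of all genes, and 12 did not pass. Krt19 was among those 12. It rose by 3.78 and 3.88, with a difference between the siRNAs of 0.10 (limma adjusted p = 0.684). Prph and Nefm, filament proteins of neurons, rose by 1.88 and 2.21 and by 2.27 and 2.72. Ina, another neuronal filament gene, was the one that was lower. Among 17 cadherin and catenin genes 7 were higher and 3 lower (median 0.06), with Cdh3, P-cadherin, at 2.15 and 1.86 and the endothelial Cdh5 at -1.07 and -0.95. Of 11 neural crest genes 4 were higher and 1 lower (median 0.14), among them Ets1 at 3.32 and 4.18 and Msx2 at 2.18 and 2.48. The lower one was Foxd3, at -0.27 and -0.48. Sox10, among the higher, did not pass with siRNA #1 (limma adjusted p = 0.0984). With the mean of all its probe sets Sox10 gave -0.06 in the mean of both siRNAs, against 0.40, and lost its call. The mean of all probe sets gave smaller differences in the mean of both siRNAs for Prph (0.57 against 2.07) and Lmna (0.70 against 1.14). It did so too for Cdh3 (1.11 against 2.00), Cdh5 (-0.62 against -1.01) and Msx2 (1.20 against 2.33). Also smaller were Ets1 (2.51 against 3.75), Dsp (2.28 against 3.29), Col5a2 (1.45 against 2.16), Hmga2 (1.27 against 1.81) and Sox4 (0.76 against 1.12). Larger were Snai3 (1.05 against 0.83), Mmp2 (1.34 against 1.21), Sin3a (-0.76 against -0.58) and Cdh2 (1.81 against 1.79). Sox10 apart, all of these still passed.

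**Figure D4:**
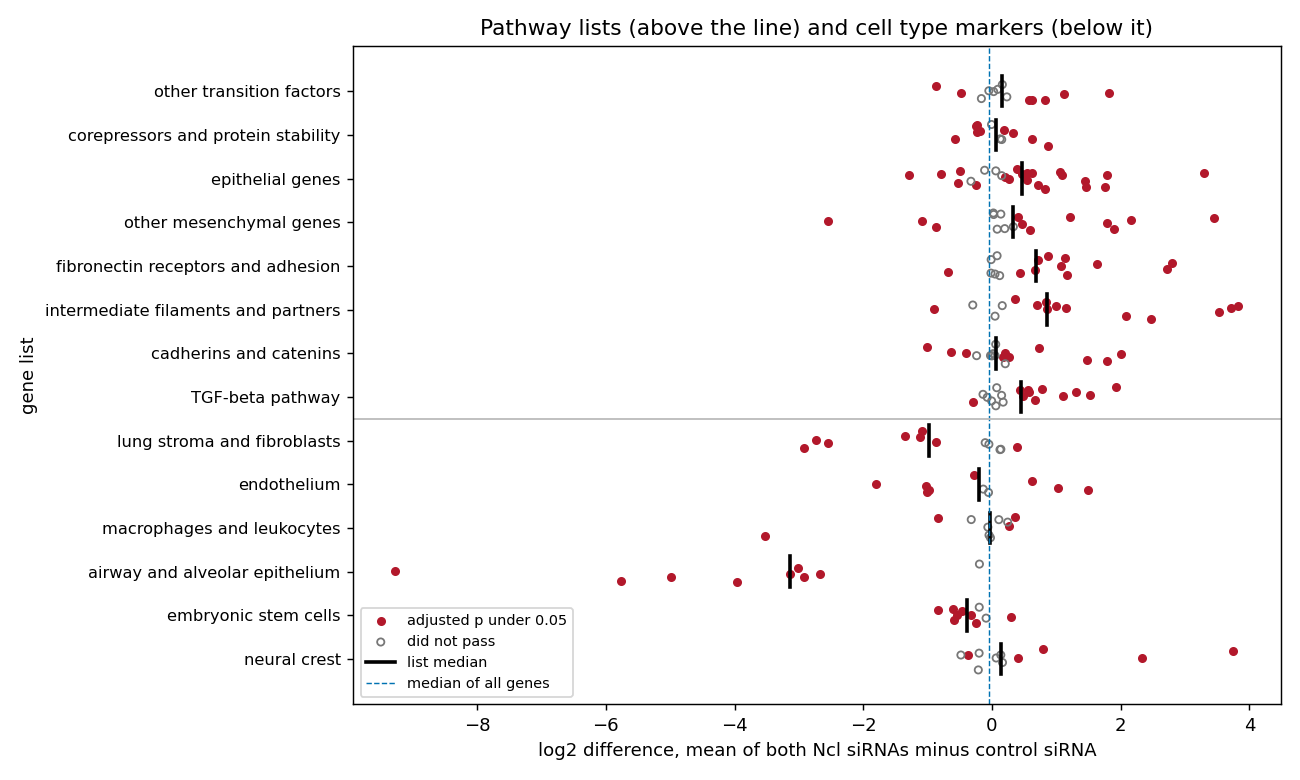
Each point is a gene, placed by its log2 difference in the mean of both Ncl siRNAs minus control siRNA, filled where it passed and open where it did not, with the list median as a black bar and the median of all genes as a dashed line. Filament genes and fibronectin receptors have medians of 0.85 and 0.69, and the markers of lung stroma and of airway and alveolar epithelium have medians of -0.98 and -3.14.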

How the data were processed

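Affymetrix arrays of biotin-labelled RNA from 6 samples were used, per the labels. The deposited values are log2 probe set signals that the authors had normalized between arrays, by a method not given in the sources used here. Of 45101 probe sets, 64 controls were left out and 45037 tested, and genes were named from GEO's platform annotation (34958 probe sets with 1 symbol, 932 with several, 9211 with none). For gene lists, the probe set with the highest mean stood for each of 18193 genes.

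All 6 arrays entered a single limma 3.58.1 model (R 4.3.3) with a mean for each group, with variances following mean expression (3 residual and 12.99 prior degrees of freedom) and Benjamini-Hochberg adjustment over all probe sets. It was tested on simulated data for the mean of both siRNAs minus control over 45037 probe sets. It found 9 of 67 changes of 0.5, 44 of 67 of 1 and 64 of 66 of 2 on the log2 scale, with 3 false calls. Far fewer probe sets were changed there than the 31.5% that passed in the data. The adjusted threshold was thus stricter in the simulation, and these rates need not hold for the data. Small changes can still be missed. The members and lists were chosen with earlier results of these data known. By rule the text could name all member probe sets and, per list, up to 6 genes that passed with the largest mean change, beside Cdh1, Cdh2, Ncl and the 3 nearest profiles of each member with a call. Outside that rule, Col1a2, Ina, Itga5, Smad3, Tgfb1 and Tgfb3 were named after their values were seen. The labels do not say that replicate numbers pair the arrays, and the reported fit did not pair them. Deviations of same-numbered arrays correlated at 0.02, 0.00 and 0.02, which cannot show that they were unpaired. No set test was run. Promoter sequences are RefSeq's.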

Additional observations from a re-analysis of the deposited data

Results flagged for a closer look

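The 3 Vim probe sets were set apart because the effects of the 2 siRNAs against the same control differed by the test of siRNA #2 minus siRNA #1. The differences were 0.55 for 1438118_x_at, 0.54 for 1450641_at and 0.60 for 1456292_a_at, with limma adjusted p-values of 4.02e-04, 4.92e-05 and 7.06e-05. Both siRNA #2 arrays read above both siRNA #1 arrays on each of the 3. Over its 5 probe sets Ncl stood at 33.6% to 72.5% of control with siRNA #2 and at 37.2% to 72.9% with siRNA #1, and which siRNA left more differed between probe sets. Groups of 2 arrays were too small for a test of single outlying arrays.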

How the results depend on the processing

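Of 1244 values of member probe sets under 18 alternatives, 1178 kept their direction and side of the threshold, 47 lost a call, 19 gained one and none turned round with a call. The 3 Vim and 2 Fn1 probe sets kept their calls with siRNA #2, and in the mean of both siRNAs, under each alternative that gave them a value, other than the 2 stricter thresholds. The fit with 1 probe set per gene gave a value for the brightest probe set of each gene only. With 1 probe set per gene, 4, 2, 4 and 1 of 8 passed with siRNA #1, with siRNA #2, in their mean and in siRNA #2 minus siRNA #1, since fewer probe sets were tested. A change of at least 2-fold was met by 2, 3, 3 and 0 of 20. With array weights 10 passed with siRNA #2, and with variances without a trend 0 passed in siRNA #2 minus siRNA #1 (limma, with 3 at an unadjusted p under 0.05 in the reported fit). The cause of these last 2 was not tested. Leaving out each array in turn gave 6 to 9 with siRNA #1, 5 to 8 with siRNA #2, 6 to 8 in their mean and 3 to 4 in siRNA #2 minus siRNA #1. With the replicate block 8, 6, 8 and 3 passed and no member call changed. Quantile normalization ended the siRNA #1 call of Snai2 1447643_x_at (0.45, adjusted p = 0.0625). Of 188 list genes 127 passed, and 117 to 128 did under the 4 alternatives run for them (quantile normalization, centring, the mean of all probe sets and the replicate block). Gsk3b and Smad3 were among the 18 whose call changed with the mean of all probe sets. Depth has no meaning on arrays, and 6 of 20 member probe sets lay below the lower quartile throughout.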
